A study of Mus musculus with 20 samples.

Results

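Transcripts of the immunoglobulin light chain V segments were followed across single cells of a mouse lymph node response. The members are every gene of the deposited matrix whose symbol starts with Igkv or Iglv and a number: 128 of 16047 genes, of which 125 are kappa and 3 are lambda V segments (Iglv1, Iglv2 and Iglv3). All 128 had counts. C57BL/6 mice received NP-KLH, the hapten nitrophenyl on a carrier protein, in Sigma Adjuvant System, and on day 15, 4 days after tamoxifen, eYFP+ cells of the B lineage were taken one by one from lymph node by index sorting. The tamoxifen-dependent driver of eYFP is not given in the sources used here. The 1367 cells came from 20 plates, 10 with the sampleID C57BL/6F (626 cells) and 10 with C57BL/6M (741 cells). Both sampleIDs had the same immunization and day, and the table of cells gives the letters F and M in a column on sex. The number of mice is not given, so sex, animal and sampleID cannot be told apart, and p-values measure only the spread between plates.

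A B cell joins 1 V segment to a J segment in each light chain locus it rearranges, and usually expresses a single light chain, kappa or lambda. The V segment forms most of the variable domain, and somatic hypermutation in the germinal centre adds base changes to it. In C57BL/6 mice the response to nitrophenyl is known for antibodies with a lambda 1 light chain and the heavy chain segment V186.2, named IGHV1-72 in the deposited heavy chain calls. The germinal centre dark zone is the site of proliferation and mutation, the light zone the site of selection, and plasma cells secrete antibody.

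The authors' annotation gave 452 dark zone (DZ), 278 light zone (LZ) and 48 LZtoDZ cells, pooled below as germinal centre B cells. It also gave 17 preMem, 29 prePC.Act, 63 prePC.Mem and 480 plasma cells (PC). How it was made is not given in the sources used here. The 7 plasma cell markers summed to 20263 CPM (counts scaled to the same total in every pool) in plasma cells and 4976 in dark zone cells, and the 6 germinal centre markers to 124 and 3528. The 5 light zone markers reached 4956 in light zone cells against 1841 in dark zone cells, and the 5 dark zone markers 1070 in dark zone against 817 in light zone cells. Some sums were higher in another state. Plasma cell markers were at 25997 in prePC.Mem, light zone markers at 6453 in preMem and dark zone markers at 1239 in prePC.Act. Genes of T cells, myeloid cells, red cells and stroma, of which 13 of 15 were in the matrix (not Cd3e and Cd14), summed to between 15.6 and 121 in the 7 states. Plate totals ran from 3208858 to 11908095 counts on 19 plates, whereas plate 6 of C57BL/6F held 10 cells and 5979 counts. No count in the matrix exceeded 1024. A light chain V segment stood at that ceiling in 84 cells and had 1000 counts or more in 371 cells, so the highest levels are compressed.

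In the GENCODE M21 annotation of GRCm38 (mm10), 127 of the 128 symbols were matched, all but Igkv8-23-1. The 124 kappa segments lay on chromosome 6 between 67555497 and 70704177, and the 3 lambda segments on chromosome 16 between 19085017 and 19260859. The annotation lists 99 of them as V genes and 28 as pseudogenes, and a pseudogene was the highest-count segment in 22 cells, of which 20 had Igkv12-47. Igkv12-47, named below among the frequent segments, is thus a pseudogene in this annotation. Iglv1 lies at chr16:19085017-19085500 on the minus strand in 2 exons. Over the last 120 bases of their annotated transcripts, Iglv1 and Iglv2 differ at 4 positions, in capitals below. These are C11T, G81T, A87G and A113C (Iglv1 base, position from the 5′ end of the printed stretch, Iglv2 base). They are shown because reads of these near-identical segments could be assigned to either.
Iglv1: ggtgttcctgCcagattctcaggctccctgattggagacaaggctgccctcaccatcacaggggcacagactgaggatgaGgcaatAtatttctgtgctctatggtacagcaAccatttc
Iglv2: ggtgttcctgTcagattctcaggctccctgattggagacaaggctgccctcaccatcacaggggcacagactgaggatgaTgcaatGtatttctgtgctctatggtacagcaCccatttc
The annotated 3′ ends of Iglv3 and of 4 kappa segments on which the results turn follow, 90 bases each. Capitals mark the codon of the conserved cysteine that precedes the third complementarity-determining region.
Iglv3: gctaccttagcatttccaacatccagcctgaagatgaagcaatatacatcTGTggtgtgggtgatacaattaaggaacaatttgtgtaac
Igkv14-111: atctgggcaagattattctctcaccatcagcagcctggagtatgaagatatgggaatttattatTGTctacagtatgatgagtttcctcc
Igkv10-96: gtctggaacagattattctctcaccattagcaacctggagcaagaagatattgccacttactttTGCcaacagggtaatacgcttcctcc
Igkv9-120: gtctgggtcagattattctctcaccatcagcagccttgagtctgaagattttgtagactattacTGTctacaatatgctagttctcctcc
Igkv14-126: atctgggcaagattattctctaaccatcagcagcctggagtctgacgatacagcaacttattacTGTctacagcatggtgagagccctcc
Over whole transcripts, Iglv1 and Iglv2 were 96.7% identical, and Igkv14-111 and Igkv14-126 were each other's nearest member at 91.6%. Igkv9-120 was nearest to Igkv9-124 (95.2%), and Igkv10-96 to Igkv10-94 (95.4%). In 10 kappa segments the nearest member was at least 98% identical, among them Igkv5-43 and Igkv5-45 (98.4%), so counts within such pairs are uncertain.

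Every cell had at least 1 light chain V count. The median cell had 843 (lowest 1, highest 4804), and the members together took 1.30% of all counts. The segment with the most counts in a cell, at least 2 and without a tie, is called the highest-count segment. It was defined in 1345 cells, of which 1103 had a kappa and 242 a lambda segment, and 86 different segments held that place. Of the other 22 cells, 10 had no member with 2 counts and 12 had a tie. In 132 heavy chain clones of at least 2 cells, as the authors grouped them, 488 of 521 cells (93.7%) had their clone's most frequent light chain segment, and in 104 clones all cells did. How the authors defined clones is not given in the sources used here.

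Iglv1 was the highest-count segment in 224 cells (16.7%), on all 20 plates. It was followed by Igkv14-111 with 73 cells, Igkv10-96 with 61, Igkv9-120 with 54, Igkv1-110 with 48 and Igkv1-117 with 38. Igkv12-98 and Igkv5-43 had 36 cells each, Igkv6-15 had 34, Igkv8-30 had 32, and Igkv1-135 and Igkv15-103 had 28 each. Igkv9-124 had 27, Igkv6-17 had 24, Igkv14-126 had 22, and Igkv12-47, Igkv12-44, Igkv4-57-1 and Igkv6-23 had 20 each. These 19 segments accounted for 845 cells (62.8%). Iglv2 was highest in 16 cells and Iglv3 in 2, and 42 members were never highest.

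**Figure D1:**
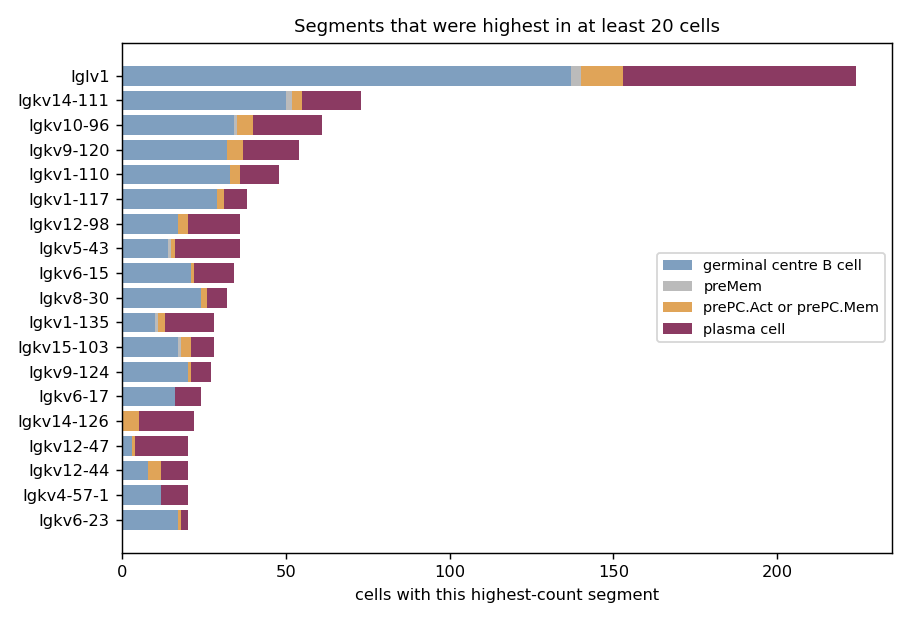
Number of cells (x axis) in which each of the 19 most frequent segments (y axis) had the most light chain V counts, split by annotated class. Iglv1 leads with 224 cells, and Igkv14-126 has 0 germinal centre B cells among its 22.

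The segments differed in how their cells spread over the classes. Igkv14-126 was highest in 17 plasma cells and 0 germinal centre B cells, and Igkv12-47 in 16 plasma cells and 3 germinal centre B cells. Igkv6-23 stood at the other end, with 2 plasma cells and 17 germinal centre B cells. Igkv1-117 had 7 and 29, and Igkv8-30 had 6 and 24. Some of these cells were grouped into the same clones by the authors: the 22 Igkv14-126 cells belonged to 2 clones, and 10 of the 20 Igkv12-47 cells to 1 clone. The larger Igkv14-126 clone, of 15 cells, spanned both sampleIDs, and whether its cells share an ancestor was not tested. By contrast the 20 clones among the Igkv6-15 cells had at most 2 cells each. Igkv9-120 cells fell into 6 clones, of which 1 held 36 cells.

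Iglv1 led in each of the 4 largest states, with 79 of 440 dark zone cells (18.0%), 49 of 275 light zone cells (17.8%), 71 of 474 plasma cells (15.0%) and 10 of 62 prePC.Mem cells (16.1%). In the 48 LZtoDZ cells Iglv1 and Igkv9-120 had 9 cells each. Per plate, with at least 3 cells of each class, the Iglv1 share in plasma cells was 14.8% ± 8.26 (SD, n = 19 plates; lowest 3.85, median 13.8, highest 33.3). In germinal centre B cells of the same plates it was 18.0% ± 5.40 (lowest 4.88, median 19.2, highest 25.6). The difference of -3.26 percentage points was within the spread of plates (two-sided sign-flip permutation test, p = 0.201, adjusted p = 0.251 over the 10 single-value tests, lower on 13 of 19 plates). On the 9 C57BL/6F plates alone it was -9.87 points and passed the test (exact permutation test, adjusted p = 0.00977), and on the 10 C57BL/6M plates it was 2.68 points and did not (permutation test, adjusted p = 0.461). A permutation of the sampleID over plates gave p = 0.00781 for that contrast, and 0.0624 after adjustment over 8 such contrasts. With the further condition that an Iglv1 cell had more lambda (Iglc1, Iglc2 and Iglc3) than kappa (Igkc) constant region counts, the difference over all 19 plates was -0.0714 points. Among Iglv1 cells, Igkc exceeded these lambda genes together in 24 of 137 germinal centre B cells and 2 of 71 plasma cells. Among kappa cells, the lambda genes exceeded Igkc in 120 of 619 germinal centre B cells and 45 of 394 plasma cells. By this measure the calls were less certain in germinal centre B cells. The share of light chain V counts held by the highest-count segment went the other way. Its median was 90.64% in kappa germinal centre B cells and 51.34% in kappa plasma cells.

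Dark and light zone cells differed in the Iglv1 share by 0.918 points (18.6% ± 7.64 against 17.6% ± 8.47, n = 19 plates; permutation test, adjusted p = 0.744). By sort gate, the share was 18.3% ± 11.2 in the plasma cell gate and 12.97% ± 6.72 in the pre-plasma gate (n = 20 plates). That difference of 5.29 points did not pass the test (permutation test, adjusted p = 0.164, higher on 11 of 20 plates). It was 11.6 points on C57BL/6M plates (permutation test, adjusted p = 0.0381) and -1.01 points on C57BL/6F plates (adjusted p = 0.796). Where the highest segment had to hold at least 50% of a cell's light chain V counts, it was 15.97 points (adjusted p = 0.0301). Among annotated plasma cells, the median share held by that segment was 51.34% in kappa cells and 71.96% in Iglv1 cells. The 50% condition can thus remove more kappa than Iglv1 plasma cells, so the test under it cannot decide whether usage differs. The difference between these gates was 7.12 points (adjusted p = 0.0325) under the constant region condition, which was chosen after seeing the data. Over all states, the share per plate was 18.3% ± 4.72 in C57BL/6M and 14.4% ± 3.43 in C57BL/6F (n = 10 plates each; permutation of plate labels, p = 0.0511, adjusted p = 0.102). With the same constant region condition the sampleIDs differed by 3.90 points (adjusted p = 0.0383).

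The level of light chain V transcripts was next compared between states in pools of at least 5 cells of a plate. In bulk pools, fewer cells using a segment and less RNA of it per cell cannot be told apart. All members together reached a median of 7555 CPM in dark zone pools (lowest 5607, highest 11115, 19 plates) and 8723 in light zone pools (6022 to 14330). In plasma cell pools the median was 20412 (13621 to 32267, 19 plates). The plasma cell range did not overlap the dark zone range but overlapped the light zone range. The 6 prePC.Mem pools were the highest, with a median of 65742 (33072 to 144590). The highest of them was the pool of plate 6, and the next was at 85234. Those cells were shallow, with a median of 16638 counts per cell against 70190 in plasma cells. The 29 prePC.Act cells, too few per plate for pools, were at 5425 over all cells together, the 48 LZtoDZ cells at 4012 and the 17 preMem cells at 9763.

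**Figure D2:**
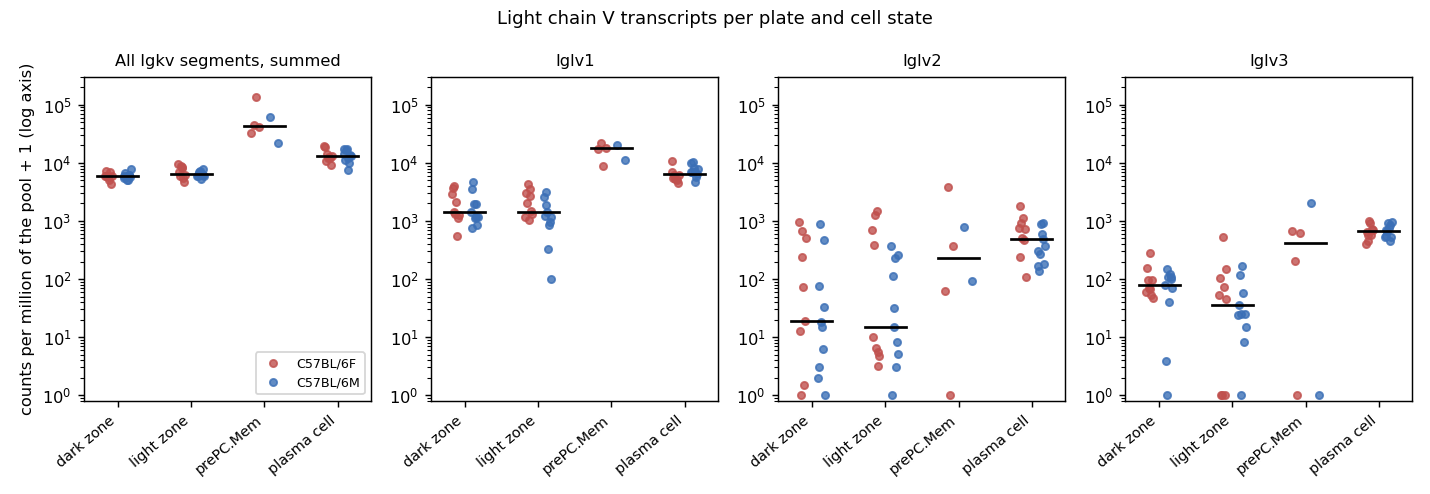
CPM plus 1 (y axis, log scale) of the summed Igkv segments, Iglv1, Iglv2 and Iglv3 in each pool of at least 5 cells, by state (x axis); a point is a plate, coloured by sampleID, and the line is the median over plates. For Iglv1 the medians are 6346 in plasma cells and 17864 in prePC.Mem, against 1419 and 1420 in dark and light zone pools.

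The lambda segments were higher in plasma cells than in germinal centre B cells. Iglv1 ran from 4495 to 10873 CPM over the 19 plasma cell pools (median 6346), against 553 to 4616 in dark zone pools (median 1419), so the ranges overlapped. Its log2 fold change against germinal centre B cells was 2.40 ± 0.14 (SE; edgeR quasi-likelihood test, adjusted p = 3.4e-13, higher on 19 of 19 plates). Iglv3, a lambda segment that was highest in only 2 cells, ran from 407 to 1004 in plasma cell pools and 0 to 284 in dark zone pools. In light zone pools it ran from 0 to 521, which overlapped the plasma cell range. Its log2 fold change against germinal centre B cells was 3.601 ± 0.32. Iglv2 changed by 2.20 ± 0.58 (edgeR adjusted p = 0.00428), higher on 15 of 19 plates. Compared with all germinal centre B cells of the same plate, the Iglv1 and Iglv3 pools did not overlap, whereas the Iglv2 pools did.

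In plasma cells with a kappa highest-count segment (394 cells), Iglv1 was present in 100% with a median of 559.5 counts (lowest 3). In germinal centre B cells with a kappa segment (619 cells) the median was 2, and 79.8% had a count. Per plate, kappa plasma cells held 3591 to 10181 Iglv1 CPM (median 5452, 19 plates), and kappa germinal centre B cells 88.8 to 476 (median 230), with no overlap. Iglv1 was the next-highest segment in 321 of the 394 kappa plasma cells. Iglv3 went the same way, with 407 to 957 CPM in kappa plasma cells and 0 to 122 in kappa germinal centre B cells. Median counts of the kappa segments stayed lower. Over the 125 Igkv genes, the highest median in plasma cells where another segment led was 1 count. Igkv14-126 was present in 61.3% of such cells, at 166 CPM over all of them, and it had 0 to 14.6 CPM in germinal centre pools, where it was never the highest segment. Igkv6-15 was present in 56.7% of plasma cells led by another segment, at 275 CPM. These kappa cells were chosen by the same counts, so the levels are given as a description without a test.

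Other genes bear on this level. In kappa plasma cells the median Igkc count was 868, against 22 in the 71 Iglv1 plasma cells, and Iglc1 had medians of 147 and 980. Igkc exceeded the 3 lambda constant genes together in 348 of the 394 kappa plasma cells and in 2 of the 71 Iglv1 plasma cells. The heavy chain segment Ighv1-72, most often paired with Iglv1, had a median of 3 counts in kappa plasma cells against 861 in Iglv1 plasma cells. Per plate it held 34.1 to 1312 CPM in kappa plasma cells, against 3591 to 10181 for Iglv1. The source of the Iglv1 counts in kappa plasma cells was not tested. In Iglv1 plasma cells the level of Iglv1 itself was a median of 1023, at the ceiling of the counts, against 562 in the 137 Iglv1 germinal centre B cells.

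**Figure D3:**
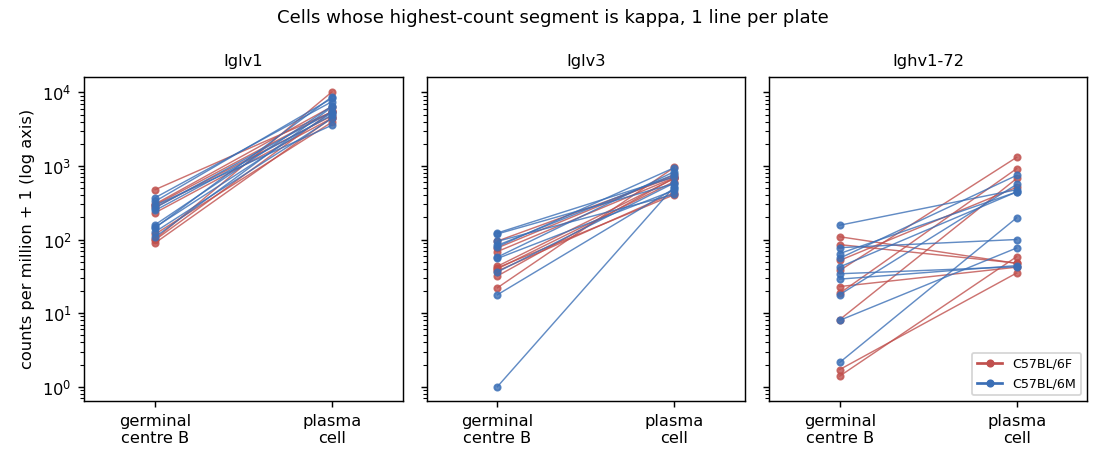
CPM plus 1 (y axis, log scale) of Iglv1, Iglv3 and the heavy chain segment Ighv1-72 in cells whose highest-count segment is kappa, in germinal centre B cells and plasma cells (x axis) of the same 19 plates; a line is a plate. Iglv1 is at 3591 or more in all plasma cell pools and at 476 or less in all germinal centre B cell pools.

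The share of a cell's light chain V counts held by its highest-count segment was lower in plasma cells. Over cells with at least 10 such counts it was 55.9% ± 6.38 in plasma cells and 81.1% ± 3.67 in germinal centre B cells (n = 19 plates). The difference of -25.2 points held on 19 of 19 plates (sign-flip permutation test, p = 1e-05, the smallest that 100000 resamples can give, adjusted p = 5e-05). It was -22.9 points among cells whose highest count was under 1000. The median highest count was 1012 in kappa plasma cells, near the ceiling of 1024, and 365 in kappa germinal centre B cells. Whether counts under 1000 are compressed too was not tested, so this cut cannot separate the ceiling from a difference in RNA.

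Of the 54 members that passed the filter on low counts in plasma cells against germinal centre B cells, 31 were higher and 0 lower, where 30.9% of the 7649 genes tested were called in either direction (1156 higher, 1211 lower). The median log2 fold change was 2.46 over these members and -0.25 over all genes tested. From here to the heavy chain pairing, CPM of pools are on the TMM-scaled library sizes of each edgeR fit, so they differ somewhat from those above; values over all cells of a state are not. Members that passed the filter only through plasma cells had to differ. The count, and the fold changes and p-values of such members below, are thus given as a description. Without a filter on low counts, 50 of 127 were higher and 1 lower. The largest change was in Igkv14-126, at 6.86 ± 0.42 on the log2 scale (edgeR adjusted p = 8.1e-13). It ran from 87.4 to 2240 CPM in plasma cell pools (median 542) and from 0 to 14.6 in germinal centre pools (median 5.10), with no overlap. Igkv6-13 was next with 6.23 ± 0.72 (edgeR adjusted p = 1.5e-07), at 29.9 to 1642 against 0 to 26.7, and again the pools did not overlap.

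Other large changes came with overlapping pools. Igkv12-47 changed by 5.67 ± 0.78 and had 35.1 to 3798 CPM in plasma cell pools against 0 to 374. Igkv1-122, Igkv4-80, Igkv3-7, Igkv4-72, Igkv6-20, Igkv4-53 and Igkv8-21 changed by 4.13 to 5.67 on the log2 scale. In each of them the median germinal centre pool was below 7 CPM. By highest-count segment, Igkv4-53 led in 14 plasma cells and 2 germinal centre B cells, Igkv4-80 in 5 and 0, Igkv1-122 in 2 and 0, and Igkv6-20 in 3 and 1. Igkv3-7 led in 3 of each class, and the counts went the other way for Igkv8-21 (1 and 8) and Igkv4-72 (1 and 3). Among the frequent kappa segments, Igkv5-43 was higher by 3.49 ± 0.79, Igkv6-15 by 1.91 ± 0.64, Igkv12-98 by 2.22 ± 0.66 and Igkv10-96 by 2.21 ± 0.84. Igkv10-96 had 18.2 to 2232 CPM in plasma cell pools and 0.729 to 905 in germinal centre pools, and its edgeR adjusted p was 0.0466. The most frequent kappa segment, Igkv14-111, had a log2 difference of 0.50 ± 0.47 (edgeR adjusted p = 0.458) and was not called. Igkv9-120 (0.84 ± 0.45), Igkv15-103 (0.29 ± 0.90), Igkv1-110 (-0.34 ± 0.83) and Igkv1-117 (-0.59 ± 0.74) were not called either.

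A list of 21 other light chain genes (constant, J, surrogate light chain and recombination genes) had 17 in the matrix and 12 that could be tested. Of these 10 were higher and 1 lower in plasma cells. Igkc, the kappa constant region, changed by 2.10 ± 0.13, Iglc2 by 2.98 ± 0.13 and Iglj1 by 1.96 ± 0.18. Vpreb3, a relative of the surrogate light chain genes, was lower by -0.59 ± 0.14 (edgeR adjusted p = 0.00204). Igkj4 missed the threshold (1.82 ± 0.70, edgeR adjusted p = 0.0503).

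Between dark and light zone cells, 0 of the 15 members tested were called by edgeR, where 1.41% of 5447 genes were. At an unadjusted p under 0.05 there was 1 such member, and DESeq2 called 6. Iglv1 had a log2 difference of 0.26 ± 0.24, with medians of 1507 CPM in dark zone pools and 1478 in light zone pools. None of the 9 listed genes tested were called either.

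The pre-plasma states (prePC.Act and prePC.Mem, 9 pools) were compared with germinal centre B cells (20 pools). All 9 pools came from plates that also gave a germinal centre pool, and the fit had no plate block. Of 49 members tested, 5 were higher and 3 lower, where 18.0% of 7942 genes were called. Iglv1 was higher by 1.47 ± 0.34 (edgeR adjusted p = 0.00167), at 260 to 13964 CPM against 589 to 3923, so the pools overlapped. The class joins states that differ: over all cells of a state, Iglv1 was at 701 CPM in prePC.Act and 14202 in prePC.Mem, against 1615 in the dark zone state and 1551 in the light zone state. Igkv14-126 (6.54 ± 0.77), Igkv12-41 (5.77 ± 1.82), Igkv6-13 (5.11 ± 1.06) and Igkv6-32 (3.20 ± 1.08) were the other members higher. Igkv12-41 reached 29802 CPM in its highest pool, and its median pool was at 21.8. Without plate 6 it changed by 2.93 ± 1.60 and was not called (edgeR adjusted p = 0.231). Igkv1-117 was lower by -6.19 ± 0.95, with 0 to 14.01 in pre-plasma pools and a median of 184 in germinal centre pools. Igkv4-74 (-7.72 ± 1.61) and Igkv8-21 (-8.05 ± 2.09) were the other members lower, with only 3 and 2 counts in the pre-plasma pools. With the plate as a block, over the 9 plates with both classes, edgeR called 0 of 24 members, where 3.84% of 4614 genes were called, and 3 had an unadjusted p under 0.05. Of the 8 members called without the block only Iglv1 could then be tested, at 0.94 ± 0.37 (edgeR adjusted p = 0.168). On C57BL/6M plates alone, without the block, Iglv1 was at 0.76 ± 0.40 (edgeR adjusted p = 0.253).

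The next comparison used sort gates, setting the pre-plasma gate against the dark and light zone gates. Of 35 members tested 6 were higher and 1 was lower, where 15.2% of 7150 genes were called. Igkv8-19 was higher by 5.65 ± 0.9995 (4.52 to 1356 CPM against 0 to 343), Igkv12-41 by 4.24 ± 1.26 and Igkv14-126 by 4.08 ± 0.78. Igkv6-13, Igkv12-47 and Iglv3 were also higher, by 3.57 ± 0.85, 3.18 ± 0.95 and 1.36 ± 0.36. Igkv1-117 was again the member that was lower (-3.56 ± 1.07). Iglv1 differed by 0.31 ± 0.18 and was not called (edgeR adjusted p = 0.294).

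The plasma cell gate against the pre-plasma gate gave 33 members higher and 0 lower of 52 tested, where 18.1% of 6564 genes were called. Members that passed the filter only through the plasma cell gate had to differ. This count and the fold changes of such members are thus a description too. Without a filter on low counts, 57 of 127 were higher and 5 lower. With the filter, Igkv12-47 was higher by 5.56 ± 0.78 and Igkv8-21 by 5.53 ± 1.10. Igkv4-68 (5.37 ± 0.72) and Igkv4-72 (5.37 ± 0.81) followed, and then Igkv14-126 by 5.12 ± 0.68. Iglv1 was higher by 2.60 ± 0.12 and Iglv3 by 2.40 ± 0.17, both on 19 of 19 plates, whereas Iglv2, at 1.0 ± 0.49, was not called. The pool ranges of Igkv14-126 overlapped here, with 147 to 2948 CPM in the plasma cell gate and 2.66 to 748 in the pre-plasma gate.

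The sampleIDs differed in the segments of their plasma cells. In 10 C57BL/6M and 9 C57BL/6F plasma cell pools, 6 of 64 members were higher in C57BL/6M and 2 were lower, where 0.956% of 7216 genes were called. Igkv4-59 was higher by 4.21 ± 0.58 (edgeR adjusted p = 0.000341), at 39.5 to 937 CPM in C57BL/6M and 2.27 to 32.8 in C57BL/6F, without overlap. Igkv8-19 (4.89 ± 0.72), Igkv4-79 (4.42 ± 1.06), Igkv4-91 (4.25 ± 0.84), Igkv4-57-1 (3.95 ± 0.86) and Igkv9-120 (2.495 ± 0.56) were the others higher. Igkv13-84 (-6.54 ± 1.17) and Igkv12-41 (-4.48 ± 0.96) were lower, and the C57BL/6F pools reached 1334 CPM for Igkv13-84 around a median of 6.81. Of the 19 cells with Igkv4-59 as highest segment 17 were from C57BL/6M, and 10 belonged to 1 clone. Of the 54 cells with Igkv9-120 45 were from C57BL/6M, and 36 belonged to 1 clone. Plates that hold cells of the same clone are not independent for its segment. In germinal centre B cells, edgeR called 0 of 36 members between the sampleIDs, where 0.552% of 7423 genes were called. There 7 had an unadjusted p under 0.05, and DESeq2 called 4. Whether the difference between sampleIDs itself differs between plasma cells and germinal centre B cells was not tested.

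Heavy chain V calls were available with a highest-count light chain segment in 983 cells, with 82 heavy and 84 light segments in 480 combinations. Of these combinations 320 were seen in 1 cell and 23 in at least 5 cells. IGHV1-72 with Iglv1 was the most frequent pair, in 85 cells of 32 clones on 18 plates. Among the 119 IGHV1-72 cells Iglv1 took 71.4%, Igkv10-96 had 9 cells (all of 1 clone), Igkv16-104 had 7 and Iglv2 had 4. Of the 864 cells with other heavy chains 64 had Iglv1 (7.41%). Per plate, on the 16 plates with at least 3 cells of each kind, the Iglv1 share was 71.98% ± 20.02 (SD; lowest 33.3, median 75, highest 100) in IGHV1-72 cells. In cells with other heavy chains it was 7.17% ± 3.15 (lowest 2.70, median 6.53, highest 15.2), and the groups did not overlap. The difference was 64.8 points, on 16 of 16 plates (two-sided sign-flip permutation test, p = 3e-05, adjusted p = 0.0001). By class, Iglv1 led in 47 of 60 IGHV1-72 plasma cells (78.3%) and 32 of 51 IGHV1-72 germinal centre B cells (62.7%).

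**Figure D4:**
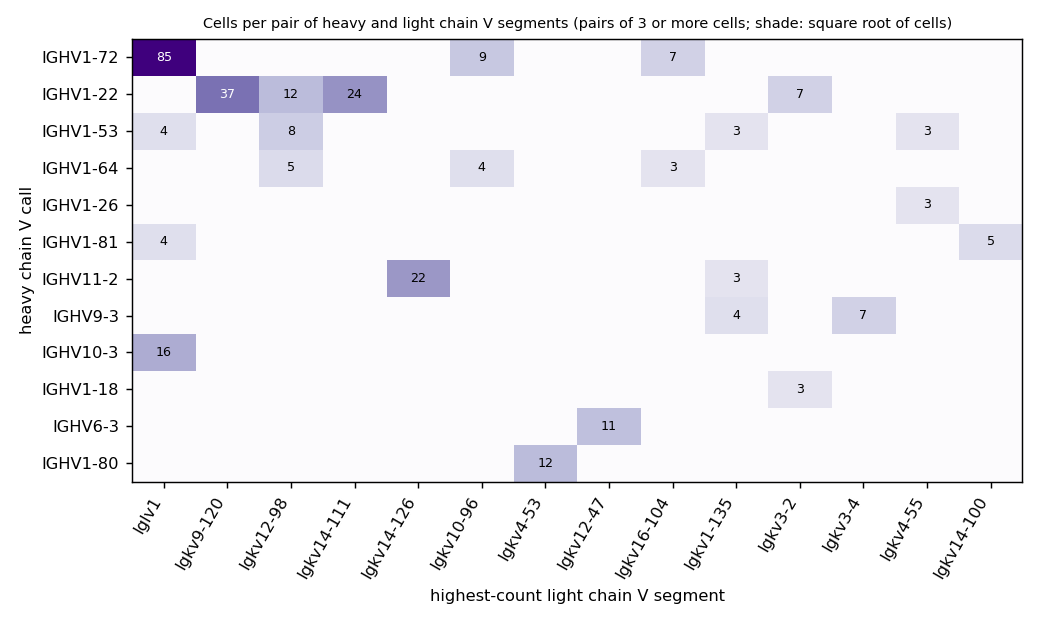
Cells for each pair of the 12 most frequent heavy chain V calls (y axis) and the 14 highest-count light chain V segments most often found with them (x axis), pairs of at least 3 cells, with the number of cells printed. IGHV1-72 with Iglv1 has 85 cells and IGHV11-2 with Igkv14-126 has 22.

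Other heavy chains carried Iglv1 too. IGHV10-3 had it in 16 of 28 cells, 13 of them in 1 clone, IGHV14-3 in 9 of 12 and IGHV14-2 in 8 of 15. IGHV1-22, the next most frequent heavy segment with 94 cells, was paired with kappa segments. Its Igkv9-120 pair had 37 cells, 36 in 1 clone, and its Igkv14-111 pair 24 cells, 22 in 1 clone. The Igkv9-120 pair came mostly from C57BL/6M (32 cells, and 5 from C57BL/6F), and the Igkv14-111 pair from C57BL/6F (22 cells, and 2 from C57BL/6M). IGHV1-22 was also seen with Igkv12-98 in 12 cells and Igkv3-2 in 7.

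IGHV11-2 with Igkv14-126, a pair known from B-1 cells that bind phosphatidylcholine, made up all 22 cells with Igkv14-126. They came from 14 plates, 10 cells from C57BL/6F and 12 from C57BL/6M. In all 22 neither the heavy nor the light chain had a mutation, 17 were annotated as plasma cells and 5 as pre-plasma states, and 18 lay in the plasma cell gate. IGHV1-80 with Igkv4-53 was close to this in state and mutations, but all its 12 cells came from C57BL/6F. They belonged to 7 clones, 10 of them were plasma cells, and the means were 0.182 light and 0.417 heavy chain mutations. IGHV6-3 with Igkv12-47 (11 cells, 10 of 1 clone, 10 plasma cells) had 2.00 light and 0.909 heavy chain mutations. Of its cells 10 came from C57BL/6F and 1 from C57BL/6M. Clones spanned the sampleIDs in 25 of 135 clones of at least 2 cells, and whether such clones share an ancestor was not tested.

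Light chain mutations, as mutated bases per assembled chain, were available in 1263 cells. No V call of that chain was available, so whether it carries the highest-count segment was not checked. Values given by segment below can thus include mutations of another chain of the cell. They were fewer in plasma cells than in germinal centre B cells, with 0.9004 ± 0.284 per plate (SD, n = 19; lowest 0.364, median 0.875, highest 1.5) against 2.41 ± 0.454 (lowest 1.61, median 2.47, highest 3.35). The pools did not overlap, and the difference of -1.51 held on 19 of 19 plates (sign-flip permutation test, adjusted p = 5e-05). No mutation was found in 60.6% of plasma cells and 15.5% of dark zone cells. Dark zone cells had 2.63 ± 0.597 and light zone cells 2.05 ± 0.568 (n = 19 plates), a difference of 0.578 on 14 of 19 plates (permutation test, p = 0.00747, adjusted p = 0.0187). On C57BL/6M plates alone that difference was 0.341 and did not pass the test (permutation test, adjusted p = 0.343). Germinal centre B cells of C57BL/6M had 2.31 ± 0.548 (n = 10 plates) and those of C57BL/6F 2.53 ± 0.314 (n = 9 plates), which did not pass the test (exact permutation test, adjusted p = 0.343).

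By segment, Iglv1 cells had 1.52 ± 0.759 light chain mutations per plate and kappa cells 1.76 ± 0.357 (n = 19 plates), a difference of -0.239 that did not pass the test (permutation test, p = 0.145, adjusted p = 0.207). On C57BL/6M plates it was -0.519 (permutation test, adjusted p = 0.0053) and on C57BL/6F plates 0.0715. A permutation of the sampleID gave p = 0.0586 for that contrast, 0.156 adjusted over 8. Within plasma cells the means over cells were 0.761 for Iglv1 (71 cells) and 0.914 for kappa (394 cells). Within dark zone cells they were 2.14 (66 cells) and 2.82 (316 cells).

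Kappa segments differed widely in their means. Igkv6-23 had 3.70 over 20 cells, of which 1 cell had 31 mutations, and 2.26 without that cell. Igkv14-111 had 3.66 over 67 cells (highest 13), Igkv12-98 had 2.81 over 36, and Igkv9-120 had 2.58 over 53, with no unmutated cell. Igkv1-135 had 0.778 over 27 cells, Igkv1-110 had 0.872 over 47 and Igkv5-43 had 0.912 over 34, with 74.1%, 57.4% and 58.8% of cells unmutated. Iglv2 had 0.562 over 16 cells. Clones and states differ between these segments, so the means describe the cells that carried them.

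Heavy and light chain mutation counts were set side by side within cells. Across 803 kappa cells with both values, Spearman's rho was 0.614, and across 143 Iglv1 cells 0.189, given as a description since cells of a clone can share mutations. Neither chain was mutated in 274 of those kappa cells and in 7 of those Iglv1 cells. Single kappa segments lay on both sides of the pooled value, with 0.285 for Igkv15-103 (16 cells), 0.381 for Igkv9-120 (41 cells) and 0.869 for Igkv6-15 (21 cells). Iglv1 cells had a mean of 3.85 heavy and 1.29 light chain mutations, against 2.37 and 1.57 in kappa cells. In 47 of the 143 Iglv1 cells the heavy chain was mutated and the light chain was not, against 86 of the 803 kappa cells. The difference between those correlations was not tested.

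**Figure D5:**
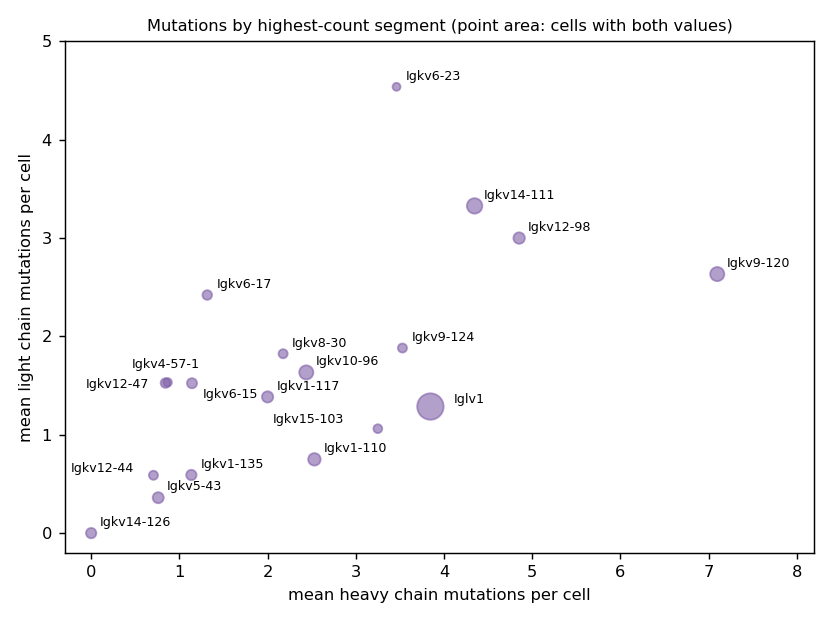
Mean light chain mutations (y axis) against mean heavy chain mutations (x axis) per cell, for the 19 segments that were highest in at least 20 cells, over cells with both values; point area is the number of cells. Iglv1 lies at 3.85 heavy and 1.29 light chain mutations, Igkv9-120 at 7.10 and 2.63, and Igkv14-126 at 0 and 0.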

How the data were processed

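Counts per gene and cell were deposited by the authors as a whole-number matrix without normalization. STAR 2.5.3a, HTSeq 0.9.1 and mm10 are named in the submitters' processing notes. The cell filter is not given in the sources used here, and neither is an assembled light chain V call. Plate, gate, state, heavy chain call, clone and mutated bases came from the authors' deposited table of cells. Counts were summed per plate and class (at least 5 cells). All genes passing filterByExpr were tested with edgeR 4.0.16 (R 4.3.3; TMM, quasi-likelihood test, Benjamini-Hochberg adjusted p under 0.05), with the plate as block in 4 comparisons. The filter used the classes compared, so counts of members called are given as a description in every comparison. The same holds for fold changes and p-values of members that passed it through a single class. On simulated counts for plasma cells against germinal centre B cells (7204 genes), 74% of 16-fold and 46% of 4-fold changes were recovered. Shares, mutations and purity were compared over plates with at least 3 cells per class by permutation (100000 resamples, exact under 10 plates). Named members are those highest in at least 20 cells, up to 10 called per direction and comparison, and Iglv1, Iglv2 and Iglv3. Members and lists were chosen with earlier results of these data known. Alternatives included DESeq2 1.42.0, other filters and scalings, thinning to 10000 counts, and single sampleIDs.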

Additional observations from a re-analysis of the deposited data

Results flagged for a closer look

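Of 36 sets of plate values checked for a plate far from the others, 2 stood out, where chance flags about 1 in 20 sets. Among the 10 C57BL/6M plates, plate 20 had a mean of 4.07 light chain mutations in dark zone cells, and the next plate had 2.71. Its 27 cells include the Igkv6-23 cell with 31 light chain mutations and 2 heavy chain mutations. Without that cell the mean was 3.04. The share of the highest-count segment in germinal centre B cells was 71.1% on plate 16 of C57BL/6M, and the next-lowest plate had 77.8%.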

How the results depend on the processing

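Of 132 alternatives, 44 of 58 for single values and 48 of 74 for counts of members called stayed on the same side of the test or within 1.5 times. Without a filter on low counts, the members called were 51 (plasma against germinal centre B cells), 7 (dark against light zone), 22 (pre-plasma against germinal centre B cells), 21 (pre-plasma against germinal centre gates), 62 (plasma against pre-plasma gate) and 7 (sampleIDs, germinal centre B cells). DESeq2 called 64, 6, 15, 27, 65 and 4 in that order. A stricter filter gave 5, 12 and 1 in the 3 comparisons it moved: pre-plasma cells, pre-plasma gate and sampleIDs in germinal centre B cells. Thinned cells gave 15, 3 and 17 for pre-plasma cells, pre-plasma gate and plasma cell gate. C57BL/6F plates alone gave 13, 3 and 12 for plasma cells, pre-plasma gate and plasma cell gate, and C57BL/6M plates alone 20 for plasma cells. Without the plate block these 3 counts were 20, 4 and 17. With a plate block, edgeR called 0 of 24 members in pre-plasma cells. Keeping 1 cell per clone and class on each plate moved no count past 1.5 times, though clones on several plates still gave several cells. Nor did leaving out plate 6. These 3 settings were chosen after seeing the data. The median log2 fold change over members tested in pre-plasma cells was 0.89, against 0.16 without plate 6, -0.38 with the block, -0.50 without a filter, -1.30 in pools of at least 10 cells and -1.36 on C57BL/6M plates. The cause of these shifts was not tested.

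The Iglv1 share in plasma minus germinal centre B cells was -9.87 on C57BL/6F plates, 2.68 on C57BL/6M plates and 2.64 with a highest segment that held at least 50% of the counts. Dark minus light zone was -1.7 on C57BL/6F plates. Plasma minus pre-plasma gate was -1.01 on C57BL/6F plates, 11.6 on C57BL/6M plates, 15.97 with the 50% condition and 7.12 with the constant region condition, under which the sampleIDs differed by 3.90. Because the 50% condition can remove more kappa than Iglv1 plasma cells, the values 2.64 and 15.97 cannot decide whether usage differs. The IGHV1-72 difference was 64.1 on 6 C57BL/6F plates (exact permutation test, adjusted p = 0.0781). All 6 plates were higher, and 6 plates cannot give a smaller p, so this test could not pass. Iglv1 minus kappa mutations were 0.0716 and -0.519 on C57BL/6F and C57BL/6M plates and 0.0789 with medians, and dark minus light zone mutations 0.341 on C57BL/6M plates. The alternatives with an assembled light chain V call were not run. Counts near the ceiling limit comparisons of high levels.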
